A study of Mus musculus with 24 samples.

Results

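Chemokines are small secreted proteins that direct the movement of leukocytes through G protein-coupled receptors. The genes described here are 5 chemokine ligands, Ccl12, Cxcl12, Cxcl14, Cxcl16 and Cx3cl1, chosen by symbol from the 14769 gene symbols in 4 deposited expression tables from mouse cortex. Some ligands of the family are made at a steady level in healthy tissue and others appear with inflammation. In the brain, Cx3cl1 (fractalkine) is made mainly by neurons and acts on microglia, Cxcl12 guides cell migration and stem cell homing, and Ccl12 is a monocyte attractant closely related to Ccl2.

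Cortex RNA came from males, 3 to 4 months of age, sequenced after transient middle cerebral artery occlusion (tMCAo), a model of ischemic stroke in which a filament blocks the artery. The occlusion lasted 1 h and was followed by 1 day of reperfusion. The 24 libraries form 4 groups of 6, named by genotype, WT or ciRS-7 KO (a deletion of the circular RNA Cdr1as), and by the marks CL and PI, which the labels do not spell out. Each animal gave a CL and a PI library, and every animal, WT included, carries the strain name C57BL/6N-Cdr1asem1Nikr and had the operation, so that no group is from unoperated mice. The question set by the design is how gene expression differs between WT and KO animals after stroke, and each table also allows PI to be set against CL within a genotype.

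The values are log2 CPM (read counts scaled to a common library total), with 2 groups in each table. In each gene and group the authors' values had their extremes pulled in to the quartiles, so that the lowest and the highest of the 6 libraries cannot be recovered. Each level is therefore given as the lowest recoverable value, the median and the highest recoverable value. The estimated depth was 3.75 to 10.5 M reads (megareads) per library, and 3 reads, the limit set for a gene with no reads, came to 0.286 to 0.800 CPM. Cdr1as had a median of 2639 CPM in PI WT and 3766 CPM in CL WT, and no more than 0.169 CPM in the recoverable KO values, which is under that limit. Neuron markers fitted the labelled tissue, with all 7 listed and a summed level of 6556 to 8408 CPM over the PI and CL libraries. Summed levels of markers, here and below, run from the lowest to the highest library sum of deposited values. The pulled-in extremes narrow these ranges.

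Of 41 mouse ligand symbols of the Ccl, Cxcl, Cx3cl and Xcl families (Pf4 and Ppbp included), 15 were listed in at least 1 table and 7 in all 4. Among the 5 members, Cxcl12, Cxcl14 and Cx3cl1 were listed in all 4 tables, Ccl12 in 3 (not in that of CL KO with CL WT) and Cxcl16 only in that of PI KO with PI WT. The other listed ligands were Ccl25, Ccl27a, Ccl27b and Ccl28 in all 4 tables, Ccl6 and Ccl9 in 3, Ccl2 in 2, and Ccl4, Cxcl1 and Cxcl10 in 1. The remaining 26 symbols were listed in none of the 4 tables. They are Ccl1, Ccl3, Ccl5, Ccl7, Ccl8, Ccl11, Ccl17, Ccl19, Ccl20, Ccl21a, Ccl21b, Ccl21c, Ccl22, Ccl24, Ccl26, Cxcl2, Cxcl3, Cxcl5, Cxcl9, Cxcl11, Cxcl13, Cxcl15, Cxcl17, Pf4, Ppbp and Xcl1. A missing row gives no level, since the filter behind the tables is not given in the sources used here.

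All 5 members are protein-coding genes. On GRCm38, Ccl12 lies at chr11:82101845-82103400 on the plus strand, Cx3cl1 at chr8:94772009-94782427 on the plus strand, Cxcl12 at chr6:117168535-117181367 on the plus strand, Cxcl14 at chr13:56288643-56296551 on the minus strand and Cxcl16 at chr11:70453983-70459984 on the minus strand. Ccl2, Ccl4, Ccl6 and Ccl9 lie in the same stretch of chromosome 11 as Ccl12, with Ccl2 at chr11:82035571-82037453 and Ccl9 at chr11:83572919-83578636. RefSeq promoters (GRCm38.p6) were found for 12 of the 15 listed ligands. The 250 bases before the start are shown for Ccl12 and Ccl9, which were both higher in PI, and for Cxcl12, which was not called. Capitals mark matches on either strand to 3 motifs. The first is the TATA box, searched as TATAAA. The second is the GC box of the factor Sp1, searched with the letters GGGCGG on each strand. The third is the AP-1 site of Fos and Jun proteins, for which the searched letters were TGANTCA.
Ccl12: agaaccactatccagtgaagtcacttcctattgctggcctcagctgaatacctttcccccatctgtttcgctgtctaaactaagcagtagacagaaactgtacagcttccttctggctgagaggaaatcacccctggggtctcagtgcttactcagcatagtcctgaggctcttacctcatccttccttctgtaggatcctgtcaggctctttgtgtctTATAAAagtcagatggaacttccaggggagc
Ccl9: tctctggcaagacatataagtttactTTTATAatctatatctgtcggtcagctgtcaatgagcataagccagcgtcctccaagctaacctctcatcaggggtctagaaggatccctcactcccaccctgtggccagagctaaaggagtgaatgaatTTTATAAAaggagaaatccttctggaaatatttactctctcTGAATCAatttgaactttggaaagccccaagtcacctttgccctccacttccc
Cxcl12: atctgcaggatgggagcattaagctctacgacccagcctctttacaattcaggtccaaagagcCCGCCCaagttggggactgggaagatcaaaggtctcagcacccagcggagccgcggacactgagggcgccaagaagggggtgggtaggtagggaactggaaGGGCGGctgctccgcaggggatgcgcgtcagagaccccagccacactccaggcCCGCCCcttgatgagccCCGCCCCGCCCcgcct
The Ccl12 window (chr11:82101595-82101844, plus strand) held 1 TATA match, which began at -31 from the start, and 1 CpG dinucleotide at 48.4% GC. In the Ccl9 window (chr11:83578637-83578886, minus strand) there were 3 TATA matches, of which 2 overlap, and 1 AP-1 match at -53, with 2 CpG at 43.6% GC. The Cxcl12 window (chr6:117168285-117168534, plus strand) differed in composition, with 5 GC boxes, of which the last 2 overlap, no TATA match, and 14 CpG at 64.4% GC. Cxcl14 (chr13:56296552-56296801, minus strand) was likewise CpG rich, with 16 CpG at 59.6% GC and none of the 3 motifs. The site of STAT transcription factors, searched as TTCNNNGAA, had 1 match in this window, at -191. The window of Cx3cl1, which fell, held 1 TATA match at -6 and 1 GC box, with 14 CpG at 64.8% GC, and that of Ccl6, which rose, held none of the 3 motifs, with 2 CpG at 45.2% GC. Of 32851 RefSeq promoter windows of this length, 12.4% held a TATA match, 32.7% a GC box, 6.75% an AP-1 match and 7.02% a STAT match. Ligands that were not called also had windows low in CpG, such as that of Ccl28 with 4 CpG at 50.8% GC. Ccl25, also not called, had 1 window with 45 CpG and another with 0 CpG and 1 TATA match. A match describes the window only.

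In WT animals, PI against CL, 1 of the 4 listed members rose (Ccl12), 1 fell (Cx3cl1), and Cxcl12 and Cxcl14 were not called. Calls were made with a moderated trimmed-mean test on the recovered values at an adjusted p under 0.05. Among all the genes tested there, 10.6% were called, 5.20% as higher and 5.40% as lower. In KO animals the outcome was the same, with Ccl12 higher, Cx3cl1 lower and the other two not called, where 10.0% of all genes were called, 5.11% as higher and 4.94% as lower. The median log2 fold change of the 4 members was -0.32 in WT and -0.29 in KO, beside a median over all genes of 0.01 and -0.00068. With 4 genes this median describes Cx3cl1, Cxcl12 and Cxcl14 and not Ccl12.

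**Figure D1:**
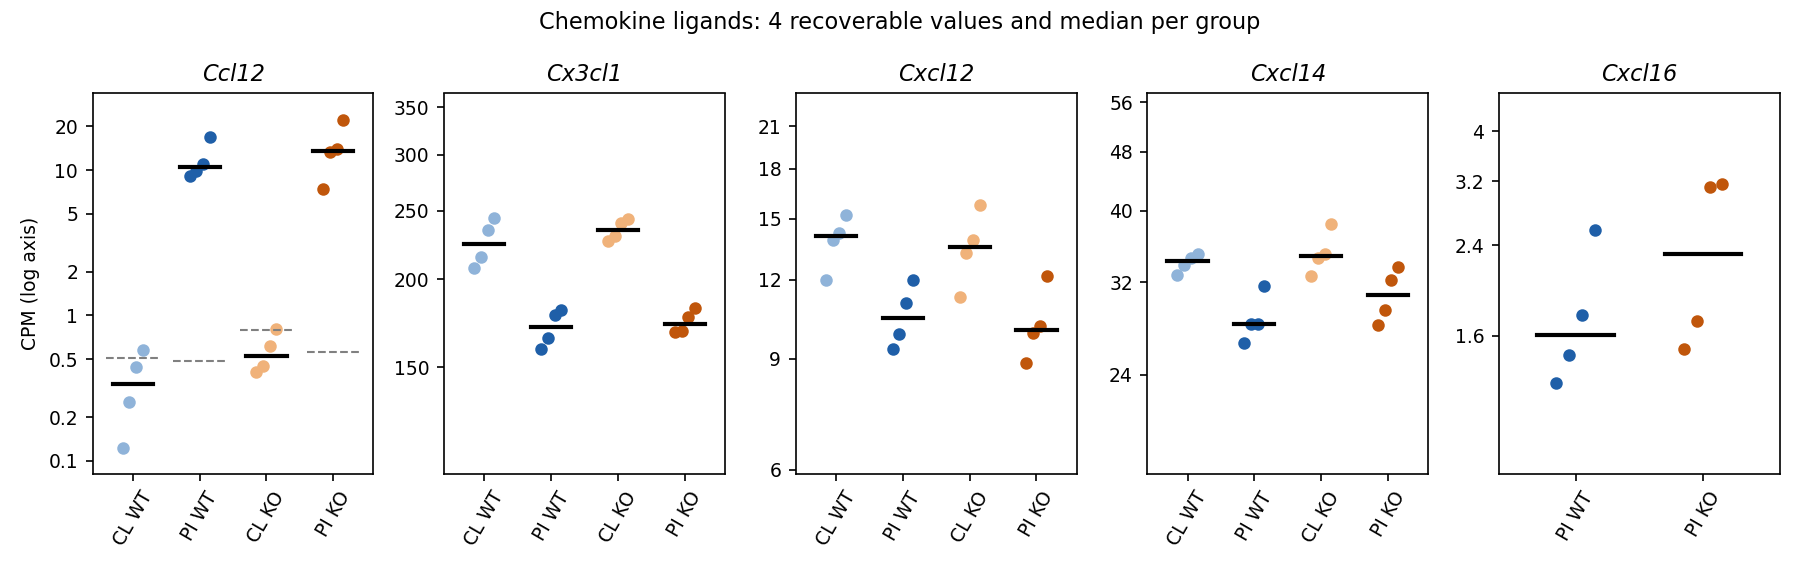
Level of each of the 5 chemokine ligands in CPM (log axes that differ between panels), with the 4 recoverable values of each group of 6 as points and the group median as a black line; dashed grey lines in the Ccl12 panel mark the highest limit of 3 reads in the group, and Cxcl16 is from the table of PI KO with PI WT. Ccl12 is at 7.42 to 21.9 CPM in the PI groups and at 0.123 to 0.806 CPM in the CL groups, whereas the panels of Cx3cl1, Cxcl12 and Cxcl14 each span less than a doubling, and Cxcl16, with PI groups only, runs from 1.29 to 3.16 CPM.

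Ccl12 rose in PI in both genotypes. Its level in PI WT was 9.04, 10.4 and 16.8 CPM (lowest recoverable, median, highest recoverable), and in CL WT it was 0.123, 0.335 and 0.577 CPM. All recoverable PI values lay far above all CL values. The deposited value was therefore higher in PI in all 6 WT animals for any pairing, by 4.19 to 6.23 on the log2 scale as paired. The log2 fold change was 5.25 (SE 0.55, 95% interval 4.05 to 6.44, n = 6 libraries a group, adjusted p = 0.000113 in the moderated trimmed-mean test based on limma), or 37.9-fold (16.6 to 86.9). The median of CL WT is under the limit of 3 reads, so the size of this fold is loosely set from below. It was 4.66 on the log2 scale with values under 3 reads raised to that limit, and 3.83 with 0.5 CPM added to all values, both called.

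In KO animals Ccl12 was at 7.42, 13.6 and 21.9 CPM in PI and at 0.410, 0.527 and 0.806 CPM in CL, again with no overlap. Its deposited value was hence higher in PI in 6 of 6 animals for any pairing. The log2 fold change was 4.58 (SE 0.42, 95% interval 3.67 to 5.49, adjusted p = 4.57e-05), or 23.9-fold (12.7 to 45.0). Leaving out each library in turn gave 4.82 to 5.56 in WT and 4.34 to 4.86 in KO, all called. Ccl12 and Ccl2 are related genes, and how the authors counted reads that match more than 1 gene is not given in the sources used here. In these bulk samples, more cells that make a transcript and more transcript per cell cannot be told apart.

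Markers of other cell types moved beside Ccl12. Of 10 monocyte and macrophage markers 5 were listed, and 3 were higher in PI in each genotype, among them Msr1, a scavenger receptor (median 17.3 CPM in PI WT against 0.496 CPM in CL WT), and F13a1, a coagulation factor subunit of macrophages (6.70 against 3.60 CPM). The summed level of the 5 listed markers was 42.2 to 52.5 CPM in PI WT and 16.9 to 19.3 CPM in CL WT. In KO it was 47.4 to 57.7 CPM in PI and 18.5 to 22.2 CPM in CL. All summed levels in this paragraph use the deposited values, whose pulled-in extremes narrow the ranges. The defining monocyte markers Ccr2 and Ly6c2 were among the 5 not listed, as were Ms4a7, Plac8 and Chil3. Microglia markers were listed 9 of 9, with 2 higher and 3 lower in WT and 2 higher and 1 lower in KO. P2ry12, a purinergic receptor of resting microglia, fell by 0.82 on the log2 scale in WT (SE 0.19, adjusted p = 0.0139) and by 0.75 in KO (SE 0.13, adjusted p = 0.00303). The summed microglia level was 173 to 202 CPM in PI WT and 179 to 193 CPM in CL WT, ranges that overlap. Fibroblast and meningeal markers were listed 7 of 7, with 1 higher in each genotype (Dcn). Their summed level was 44.4 to 54.1 CPM in PI WT and 25.1 to 33.0 CPM in CL WT, and 48.9 to 59.0 CPM in PI KO and 33.2 to 41.6 CPM in CL KO. The median log2 fold change of these markers was 0.77 in WT and 0.03 in KO. The change in KO minus that in WT was negative for all 7, with 0 called. Neutrophil markers were listed 1 of 9 for PI with CL and 3 of 9 for PI KO with PI WT. The summed level of those 3 was 5.21 to 11.3 CPM in PI KO and 3.79 to 5.75 CPM in PI WT, ranges that overlap. Of those 3 markers, 0 were called between PI KO and PI WT. T cell markers were listed 0 of 7 in every comparison. The part of these cells in the Ccl12 result was not tested.

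Cx3cl1, the membrane-bound ligand of Cx3cr1, fell by a modest and tightly measured amount. In WT it was at 159, 171 and 181 CPM in PI and at 208, 224 and 244 CPM in CL, and in KO at 169, 173 and 182 CPM in PI and at 226, 235 and 243 CPM in CL. No recoverable PI value reached a CL value in either genotype. All 6 animals of each genotype had the lower deposited value in PI, which follows from that separation for any pairing. The log2 fold change was -0.40 in WT (SE 0.08, 95% interval -0.57 to -0.23, adjusted p = 0.00548) and -0.43 in KO (SE 0.06, 95% interval -0.55 to -0.31, adjusted p = 0.000590). As a ratio, PI was at 0.759 of CL in WT and at 0.741 of CL in KO. Neuron markers were listed 7 of 7, with 2 lower and 0 higher in each genotype, Snap25 and Syt1, both proteins of synaptic vesicle release. The summed level of the 7 neuron markers was 6816 to 7476 CPM in PI WT and 7873 to 8408 CPM in CL WT. In KO it was 6556 to 7284 CPM in PI and 7728 to 8128 CPM in CL. These sums use the deposited values, so the gaps between PI and CL are overstated. The part of neurons in the Cx3cl1 result was not tested.

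Cxcl12, the ligand of Cxcr4 and Ackr3, had a similar estimate to Cx3cl1 with a wider error. It was at 9.32, 10.4 and 12.0 CPM in PI WT and at 12.0, 14.1 and 15.2 CPM in CL WT, so that the recoverable ranges meet at their ends. In KO it was at 8.87, 10.0 and 12.2 CPM in PI and at 11.3, 13.5 and 15.8 CPM in CL, and the ranges overlap. The log2 fold change was -0.39 in WT (SE 0.13, 95% interval -0.68 to -0.10, adjusted p = 0.0877) and -0.40 in KO (SE 0.16, 95% interval -0.75 to -0.04, adjusted p = 0.149), and neither passed the threshold. All 6 animals of each genotype had the lower deposited value in PI, by 0.08 to 0.66 in WT and 0.19 to 0.63 in KO on the log2 scale. The deposited PI and CL values, with their extremes pulled in to the quartiles, did not overlap in either genotype. This count therefore holds for any pairing of animals and adds no support. With the animal as a block and limma on the deposited values, whose pulled-in extremes understate the spread, the adjusted p was 0.00117 in WT and 0.00109 in KO. Endothelial markers, a cell type that makes Cxcl12, were listed 8 of 8 with none called in either genotype. In each genotype 7 of them had a positive log2 fold change and 1 a negative one, with a median of 0.35 in WT and 0.14 in KO. The part of these cells in the Cxcl12 result was not tested.

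Cxcl14, a ligand made in cortex by some interneurons and by other cells, gave the smallest estimate of the 4. It was at 26.5, 28.1 and 31.7 CPM in PI WT and at 32.7, 34.2 and 34.9 CPM in CL WT, with no overlap of the recoverable values. In KO it was at 28.0, 30.8 and 33.6 CPM in PI and at 32.7, 34.8 and 38.4 CPM in CL, with overlap. The log2 fold change was -0.25 in WT (SE 0.08, 95% interval -0.43 to -0.07, adjusted p = 0.0753) and -0.19 in KO (SE 0.10, 95% interval -0.40 to 0.02, adjusted p = 0.252). The WT value sits close to the threshold, since it was called without PI WT replicate 2 or without PI WT replicate 4 (each -0.30) and with each library centred on its median gene (-0.28, adjusted p = 0.0374). The block with limma on the deposited values, whose pulled-in extremes understate the spread, gave an adjusted p of 0.000241 in WT and 0.0127 in KO. Interneuron markers were listed 12 of 12, with 0 higher and 2 lower in WT and 2 higher and 1 lower in KO. Their summed level was 1235 to 1375 CPM in PI WT and 1268 to 1395 CPM in CL WT, ranges that overlap.

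**Figure D2:**
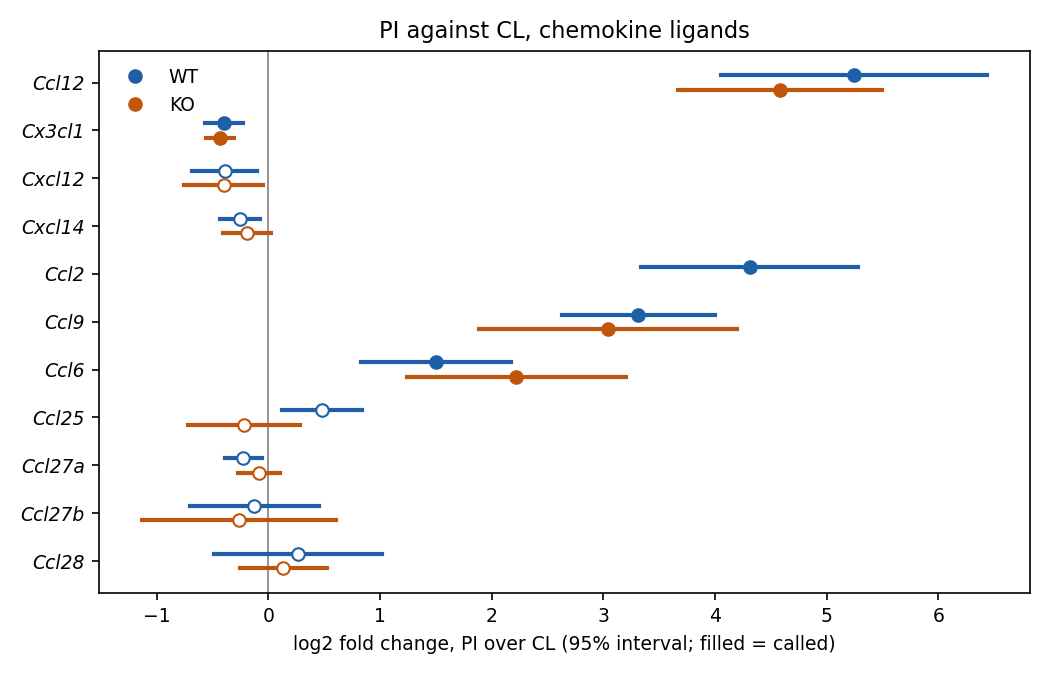
Log2 fold change of PI over CL with its 95% interval for each chemokine ligand listed in a table of PI with CL, WT in blue and KO in orange, with filled points for called genes and open points for the rest. Ccl12, Ccl2 (WT table only), Ccl9 and Ccl6 lie right of 0 with filled points, Cx3cl1 lies left of 0 with filled points, and the intervals of the other ligands have open points.

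The other listed ligands show what else of the family moved with Ccl12. Over all ligands listed, 4 of 11 rose and 1 fell in WT, and 3 of 10 rose and 1 fell in KO. All those that rose are CC ligands, 4 of the 8 listed in WT (Ccl12, Ccl2, Ccl9, Ccl6) and 3 of the 7 listed in KO (Ccl12, Ccl9, Ccl6). Among all genes, 5.20% were called higher in WT and 5.11% in KO. None of the ligands that rose was listed for CL KO with CL WT. Cxcl1, Cxcl10 and Cxcl16 were listed only for PI KO with PI WT, so they could not be tested in PI against CL. The listing may thus favour ligands that are high in PI, and these counts describe the listed genes only. Ccl2, the main monocyte attractant, was at 3.11, 3.88 and 4.45 CPM in PI WT, while all recoverable CL WT values (0.145 to 0.253 CPM) each came to fewer than 3 reads. With CL WT set to that floor, PI WT was at least 7.39-fold higher. The test on the recovered values gave an adjusted p of 0.000107, and with values under 3 reads raised to that limit it was 3.6e-05 at a log2 fold change of 3.19. Ccl2 was not listed for PI KO with CL KO. Ccl9, a ligand of Ccr1, was at 5.80, 7.53 and 8.89 CPM in PI WT and at 0.505, 0.757 and 1.03 CPM in CL WT, a log2 fold change of 3.31 (SE 0.32, adjusted p = 5.79e-05). In KO it was at 3.71, 10.1 and 16.7 CPM in PI and at 0.817, 1.12 and 1.34 CPM in CL, a log2 fold change of 3.04 (SE 0.53, adjusted p = 0.00367). Ccl6, another macrophage ligand of Ccr1, was at 2.70, 2.89 and 3.19 CPM in PI WT and at 0.721, 1.06 and 1.37 CPM in CL WT, a log2 fold change of 1.50 (SE 0.31, adjusted p = 0.00784). In KO it was at 2.60, 3.04 and 3.64 CPM in PI and at 0.313, 0.815 and 0.892 CPM in CL, where 3 reads came to as much as 0.800 CPM. This gave a log2 fold change of 2.22 in KO (SE 0.45, adjusted p = 0.00869), and 1.88 with values under 3 reads raised to that limit. None of these 3 ligands had recoverable values that overlapped between PI and CL.

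Ccl25, Ccl27a, Ccl27b and Ccl28, ligands best known from thymus, skin and mucosa, were not called in either genotype. With limma on the deposited values Ccl25 and Ccl27a were called in WT, at adjusted p of 6.74e-05 and 0.000248. With the animal as a block the values were 0.000345 and 0.000754. The pulled-in extremes understate the spread in these fits, and without the block 6459 of all 14489 genes were called in WT. The trimmed-mean test called 1537. Neither Ccl25 nor Ccl27a was called in KO in those fits. Ccl25 had a log2 fold change of 0.48 in WT (adjusted p = 0.0876) and -0.22 in KO (adjusted p = 0.620). Ccl27a, at 26.2, 28.5 and 29.5 CPM in PI WT and 31.9, 32.7 and 34.4 CPM in CL WT, had a log2 fold change of -0.23 in WT (SE 0.08, adjusted p = 0.0831) and -0.09 in KO (SE 0.09, adjusted p = 0.602). The WT value was called with each library centred on its median gene (-0.26). Ccl27a and Ccl27b are closely related copies, so that reads between them may be split in a way the files do not show. Ccl28 had a log2 fold change of 0.27 in WT (SE 0.35, adjusted p = 0.711) and 0.14 in KO (SE 0.18, adjusted p = 0.701). Leaving out 1 library moved these to between 0.08 (without PI WT replicate 1 or 5) and 0.46 (without CL WT replicate 1 or 5) in WT, and to between 0.05 (without PI KO replicate 1 or 6) and 0.19 in KO.

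Set on a scale per kb of exonic length, the order of the members changed between CL and PI because of Ccl12. In CL WT, Cx3cl1 was highest at 57.2 CPM per kb, followed by Cxcl14 at 18.6, Cxcl12 at 1.68 and Ccl12 at 0.556, and no recoverable ranges of neighbours overlapped. In PI WT, Cx3cl1 was still highest at 43.4 CPM per kb, and Ccl12 came next at 21.1 with a range of 16.8 to 31.2, which overlaps that of Cxcl14 at 15.6 (14.5 to 17.3). Cxcl12 was lowest at 1.28 CPM per kb. In PI KO the order was the same, with Cx3cl1 at 44.3, Ccl12 at 24.5 (13.8 to 40.9), Cxcl14 at 16.8 (15.3 to 18.4) and Cxcl12 at 1.25. In CL KO, Ccl12 at 1.03 (0.764 to 1.50) and Cxcl12 at 1.64 (1.38 to 1.93) overlapped. Length is that of all annotated exons together, which understates the level per kb of a gene with long alternative ends such as Cxcl12.

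**Figure D3:**
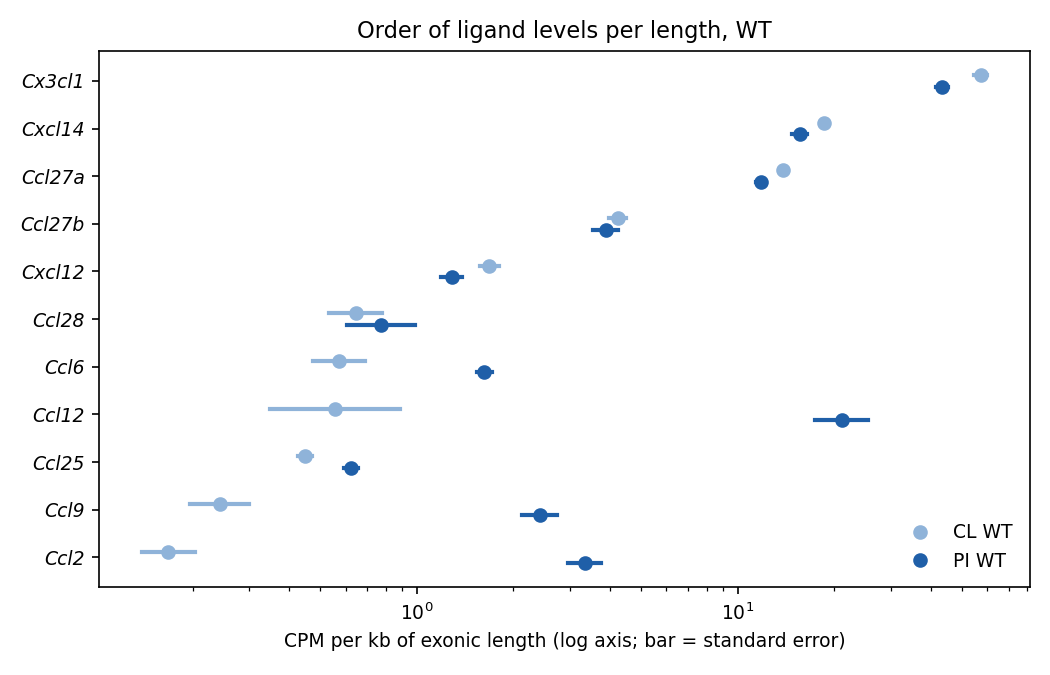
Level of each ligand listed for PI WT with CL WT in CPM per kb of exonic length (log axis), with light points for CL WT, dark points for PI WT and bars for the standard error of the trimmed mean. Cx3cl1 is highest in both groups (57.2 in CL WT and 43.4 in PI WT), and Ccl12 moves from 0.556 to 21.1.

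Between genotypes no member was called. In PI KO against PI WT 0 of 5 members passed, where 0.0208% of all genes did, in CL KO against CL WT 0 of 3, where 0.0279% did, and in the test of whether the change from CL to PI differs between genotypes 0 of 4, where 0% of genes did. At an unadjusted p under 0.05 the members numbered 0 in each of the 3 tests, against 5.75%, 5.73% and 4.55% of all genes, and limma on the deposited values also called 0. Ccl12 in PI KO and PI WT overlapped (7.59 to 22.4 and 9.20 to 17.1 CPM in that table), with a log2 fold change of 0.23 (SE 0.38, 95% interval -0.60 to 1.05, adjusted p = 0.952). Without PI KO replicate 1 or 2 it was -0.02. The difference between genotypes in its change from CL to PI was -0.67 (95% interval -2.25 to 0.92), an interval that leaves room for a large difference in either direction, and -0.08 with values under 3 reads raised to that limit.

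The constitutive members were bounded more closely. For Cx3cl1 the log2 fold change of KO over WT was 0.04 in PI (95% interval -0.11 to 0.18) and 0.07 in CL (-0.08 to 0.22). Cxcl14 gave 0.11 in PI (-0.11 to 0.33) and 0.05 in CL (-0.12 to 0.22). For Cxcl12 the values were -0.04 in PI (-0.38 to 0.30) and -0.03 in CL (-0.34 to 0.29). The differences of the change from CL to PI were -0.03 for Cx3cl1 (-0.24 to 0.17), 0.06 for Cxcl14 (-0.21 to 0.34) and -0.01 for Cxcl12 (-0.47 to 0.46). The groups overlapped for each of these members in both tables of KO with WT.

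Cxcl16, a membrane-bound ligand of Cxcr6 that also acts as a scavenger receptor, could be compared only between the PI groups. It was at 1.51, 2.31 and 3.16 CPM in PI KO and at 1.29, 1.61 and 2.57 CPM in PI WT, and the groups overlap. The log2 fold change was 0.39 (SE 0.40, 95% interval -0.48 to 1.26, adjusted p = 0.912). It was 0.23 without PI KO replicate 1 or 5 and 0.59 without PI WT replicate 3 or 6, and was called in no such fit. Per kb it was the lowest of the 5 members in PI, at 0.743 in PI KO and 0.567 in PI WT, beside 1.28 and 1.31 for Cxcl12 in the same table, with no overlap of their recoverable ranges. Zmynd15 on the opposite strand shares 552 exonic bases with Cxcl16, which is 18.3% of its exonic length, and whether the counting used strand is not given in the sources used here.

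**Figure D4:**
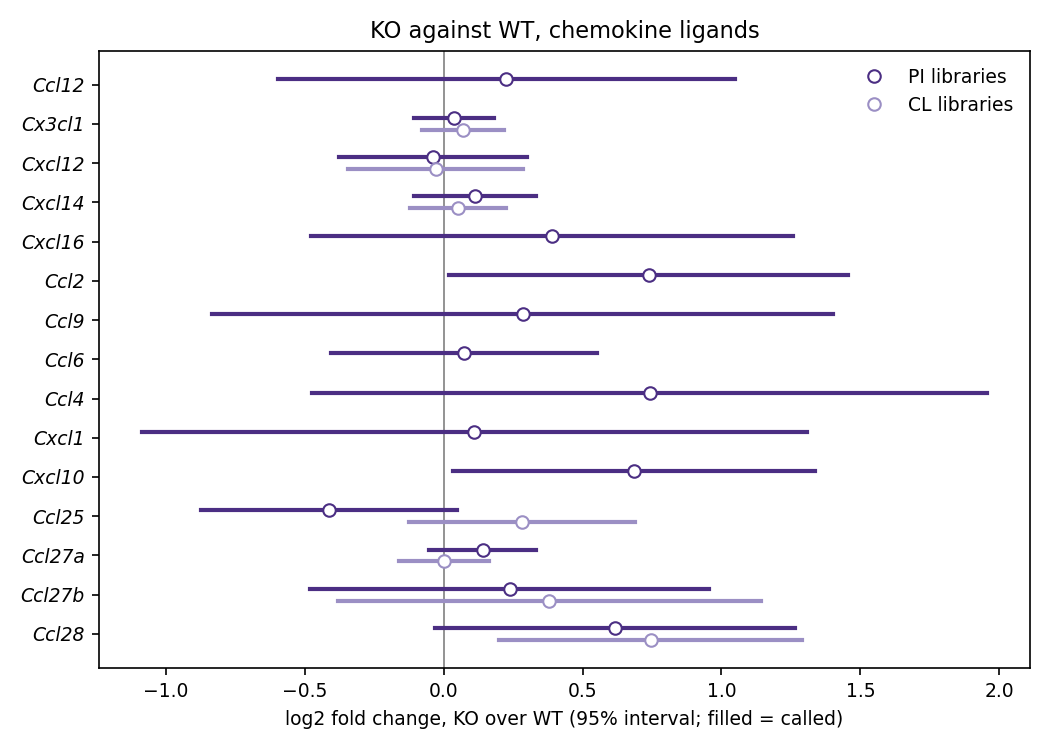
Log2 fold change of KO over WT with its 95% interval for each listed chemokine ligand, in PI libraries (dark) and CL libraries (light), with open points for genes that were not called. No point is filled, and the intervals are narrow for Cx3cl1, Cxcl14 and Ccl27a and wide for Ccl12, Ccl9, Ccl4 and Cxcl1.

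Among the other ligands, 0 of 10 were called in PI KO against PI WT and 0 of 4 in CL KO against CL WT. At an unadjusted p under 0.05 were Ccl2 (log2 fold change 0.74, SE 0.33, unadjusted p = 0.0447, adjusted p = 0.854) and Cxcl10 (0.69, SE 0.30, unadjusted p = 0.0403, adjusted p = 0.854) in PI, and Ccl28 (0.75, SE 0.25, unadjusted p = 0.0112, adjusted p = 0.740) in CL. Limma on the deposited values called these 3, and also Ccl25, Ccl27a and Ccl28 in PI and Ccl25 in CL. That fit, whose pulled-in extremes understate the spread, called 2388 of all 14452 genes in PI and 2311 of 14323 in CL. The trimmed-mean test called 3 and 4. Cxcl10, an interferon-induced ligand, was at 3.59, 5.52 and 6.04 CPM in PI KO and at 2.44, 2.91 and 4.74 CPM in PI WT, which overlap. Ccl4, an inflammatory ligand, had a log2 fold change of 0.74 (SE 0.56, adjusted p = 0.889), and Cxcl1, a neutrophil attractant, had 0.11 (SE 0.55, adjusted p = 0.988). Exons of Cxcl10 share 133 bases with Art3 on the opposite strand.

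Receptors of the members were listed only in part. Ccr2, the receptor of Ccl12, Cxcr4, a receptor of Cxcl12, and Cxcr6, the receptor of Cxcl16, were listed in none of the 4 tables. Cx3cr1, the microglial receptor of Cx3cl1, rose in PI while its ligand fell. It was at 16.2, 19.0 and 22.9 CPM in PI WT and at 8.51, 12.5 and 14.2 CPM in CL WT, a log2 fold change of 0.71 (SE 0.20, adjusted p = 0.0387). In KO it was at 16.9, 21.2 and 25.0 CPM in PI and at 12.2, 13.3 and 14.9 CPM in CL, a log2 fold change of 0.64 (SE 0.15, adjusted p = 0.0194). The recoverable values of PI and CL did not overlap in either genotype. Ackr3, an atypical receptor that clears Cxcl12, was at 4.20, 5.56 and 6.07 CPM in PI WT and 3.94, 4.89 and 5.42 CPM in CL WT and was not called in WT (0.16, SE 0.20, adjusted p = 0.696) or in KO (0.17, SE 0.22, adjusted p = 0.697). Neither receptor was called between genotypes.

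Of 24 chemokine receptors in the list used, 5 were listed in each table of PI with CL. Cx3cr1 and Ackr1 rose in WT and Cx3cr1 in KO, with none lower, and the list's median log2 fold change was 0.52 in WT and 0.33 in KO. Ackr1, a chemokine-binding receptor of venules, rose in WT (0.52, SE 0.11, adjusted p = 0.0111), and its KO value was 0.33 (SE 0.14, adjusted p = 0.173).

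Genes that cut or shed the ligands were listed 6 of 9, with 3 higher in WT and 2 higher in KO and none lower. Ctss, the cathepsin with which microglia release Cx3cl1, rose in WT (0.32, SE 0.10, adjusted p = 0.0488) and in KO (0.49, SE 0.08, adjusted p = 0.00265). Adam17, a sheddase of Cx3cl1 and Cxcl16, rose in KO (0.35, SE 0.09, adjusted p = 0.0332), and its WT value was 0.29 (SE 0.12, adjusted p = 0.149). Mmp14, a membrane-anchored matrix protease, and Rhbdf1, a partner of Adam17 in its maturation, rose in WT (0.66 and 0.62), and their KO values of 0.37 and 0.61 were not called. Adam10, the constitutive sheddase of Cx3cl1, gave 0.11 in WT (SE 0.06, adjusted p = 0.295) and 0.10 in KO (SE 0.06, adjusted p = 0.277).

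Of 17 genes of receptor signalling, 14 were listed, with 4 higher and 1 lower in WT and 3 higher and 1 lower in KO. Vav1 and Dock2, which activate Rac in leukocytes, rose in both genotypes, Vav1 by 1.69 in WT and 1.39 in KO and Dock2 by 0.80 and 0.81 on the log2 scale. Elmo1, a partner of Dock proteins that neurons also express, fell by 0.36 in WT (adjusted p = 0.00334) and by 0.28 in KO (adjusted p = 0.0374). The arrestins Arrb1 and Arrb2, which desensitize chemokine receptors, rose in WT (0.26 and 0.34), with KO values of 0.10 and 0.05 that were not called, and Gnai3, an inhibitory G protein subunit, rose in KO (0.37), with a WT value of 0.25. Of 10 chemokine-like factors 6 were listed in WT and 5 in KO, with Cmtm6 higher in WT (0.35, adjusted p = 0.0260) and Cmtm5 lower in KO (-0.90, adjusted p = 0.0109). None of the differences between genotypes in these changes was called.

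**Figure D5:**
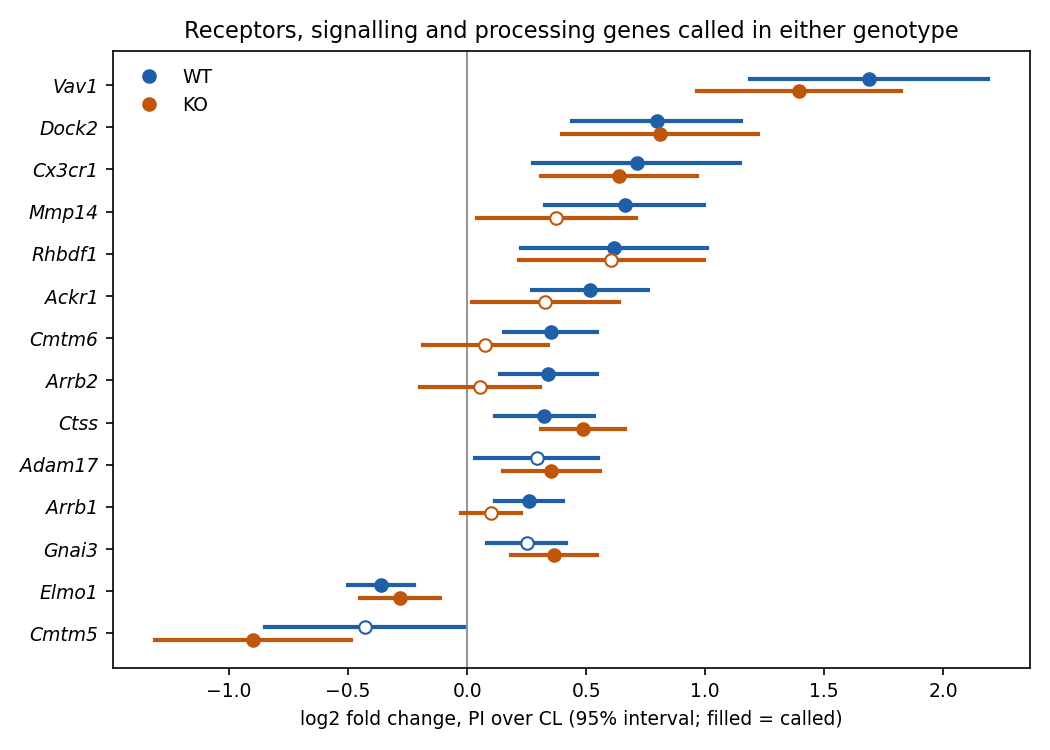
Log2 fold change of PI over CL with its 95% interval for the 14 receptor, processing, signalling and chemokine-like genes called in at least 1 genotype, WT in blue and KO in orange, filled where called. Vav1 and Dock2 have the largest positive values in both genotypes, and Elmo1 and Cmtm5 lie left of 0.

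Genes whose pattern was most like that of each member were found by the Pearson r of log2 CPM over the 12 libraries of each PI and CL table, taking the smaller r of both tables over 14210 other genes. The libraries share 2 groups and quartile values, so that r mainly describes the difference between PI and CL. Ccl12 was nearest to A2m (0.982), a protease inhibitor of plasma, S100a16 (0.978), a calcium-binding protein, and Dab2 (0.978), an endocytic adaptor. All 3 were higher in PI in both genotypes, A2m by 2.84 in WT and 3.60 in KO on the log2 scale. Cx3cl1 was nearest to Unc13a (0.983), a synaptic vesicle priming factor, Grid1 (0.980), a glutamate receptor family member, and Dmtn (0.975), an actin-binding protein. Unc13a fell by 0.38 in WT and by 0.49 in KO. Cxcl12 was nearest to Il1rapl2 (0.903), a synaptic adhesion protein family member, Ctnna2 (0.895), a catenin of neurons, and Fam20b (0.886), a xylose kinase. For Cxcl14 the nearest were Cldn10 (0.913), a claudin, Aldoc (0.883), an astrocyte aldolase, and Gm37885 (0.882). Aldoc is one of the 6 astrocyte markers, all listed, of which 1 was higher and 2 were lower in WT and 1 was higher and 1 lower in KO. Aldoc itself was not called in the trimmed-mean test, at -0.18 in WT (adjusted p = 0.189) and -0.11 in KO (adjusted p = 0.277). Cxcl16 was in neither of these tables, so no such genes are given for it.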

How the data were processed

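The authors deposited log2 CPM values in 4 tables, 1 for each pair of groups. Per the labels' protocols, RNA was ribosome-depleted with RiboCop and libraries were made with the CORALL kit. The genome build is mm10, per the submitters' processing notes, and the aligner, the counting and the scaling are not given in the sources used here. All 12 value columns of each table matched 1 sample by name, with 0 unused columns. Each table was scaled on its own, so tests were made within a table.

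In each gene and group of 6, the 2 lowest deposited log2 values were equal, as were the 2 highest, in 100% of genes. The ties are quartiles (0.75 times the second value plus 0.25 times the next), from which 4 inner values were recovered. After recovery 81.0% to 88.0% of low tied values were whole reads within 0.03 read in either tied library, against 8.80% to 13.7% as deposited and 11.6% by chance. The moderated trimmed-mean test used the mean of these 4 values, the Winsorized sum of squares as error (6 degrees of freedom for 2 groups, 12 for 4), limma 3.58.1 in R 4.3.3 with a mean-dependent prior, and Benjamini-Hochberg adjustment over all genes of the table. It was two-sided and was tested on simulated data. Depth was estimated from the step between low values, and its limits cover counting error only.

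Same-numbered PI and CL libraries come from the same animal, per the labels; their deviations correlated at -0.14 to 0.331 in WT and -0.00928 to 0.166 in KO. Alternatives were limma on the deposited values, with and without the animal as a block, no trend, median centring, a minimum mean of 1 CPM, log2(CPM + 0.5), values raised to 3 reads, and leaving out each library. Positions and exon lengths are from GENCODE M21 on GRCm38. The text names the 5 members, every other listed ligand, the members' receptors, called genes of 4 pathway lists, the 3 genes most like each member and at most 2 called markers per cell type. Adam10 was named outside this rule. The members and lists were chosen with earlier results of these data known. An item of the receptor list is not reported here.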

Additional observations from a re-analysis of the deposited data

Results flagged for a closer look

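The deposited values of Ccl25 differed between PI and CL in opposite directions in the 2 genotypes. Its deposited value was higher in PI in all 6 WT animals, by 0.45 to 0.50 on the log2 scale, and lower in PI in all 6 KO animals, by 0.10 to 0.36. In WT the deposited PI and CL values did not overlap, so that sign holds for any pairing of animals. The pulled-in extremes also narrow the range of these differences. Ccl25 was at 4.24, 4.67 and 5.07 CPM in PI WT and at 3.04, 3.35 and 3.61 CPM in CL WT. In KO it was at 2.68, 3.57 and 4.27 CPM in PI and at 3.65, 3.87 and 4.88 CPM in CL, and these ranges overlap. The difference of the changes was -0.697 (SE 0.28, 95% interval -1.28 to -0.11, unadjusted p = 0.0218, adjusted p = 0.992 in the trimmed-mean test), so it was not called. Limma on the deposited values, whose pulled-in extremes understate the spread, gave an adjusted p of 0.00167, and 0.0011 with the animal as a block. The same opposite pattern occurred in 160 of 14211 genes (1.13%). Ccl25 shares 204 exonic bases with Elavl1 on the opposite strand. Single libraries that stand apart could not be looked for, since the extremes of each group are tied.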

How the results depend on the processing

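The calls of Ccl12 and Cx3cl1 in both genotypes, and of Ccl6 and Ccl9, held under every alternative and every left-out library, as did that of Ccl2 in WT. Limma on the deposited values, whose pulled-in extremes understate the spread, called 4 members instead of 2 in each genotype. It did so with or without the replicate block, and the block changed no other call of a member. Over all genes it called 6459 of 14489 for PI against CL in WT and 6666 of 14338 in KO. For KO against WT it called 2388 of 14452 in PI and 2311 of 14323 in CL. For the difference of the changes it called 1940 of 14211. With the block it called 6614 and 6759 for PI against CL in WT and KO, and 2216 for the difference of the changes. A prior variance without a trend gave 1015 genes in WT and 739 in KO, and called Ccl25 in WT (0.48). Leaving out 1 library gave 1117 to 1468 genes in WT, 900 to 1602 in KO (922 without PI KO replicate 2, 900 without CL KO replicate 5), 3 to 4 for KO against WT in PI and 3 to 7 in CL (7 without CL KO replicate 1), and 2 to 3 members in WT. Differences near 0 changed sign when 1 library was left out; the cause was not tested. For KO against WT in PI the ranges were -0.01863 to 0.5019 (Ccl12), -0.1236 to 0.03168 (Cxcl12), -0.01046 to 0.1523 (Ccl6), -0.01794 to 0.7062 (Ccl9) and -0.2189 to 0.4438 (Cxcl1). In CL they were -0.1062 to 0.05557 (Cxcl12) and -0.03442 to 0.02203 (Ccl27a). For the difference of the changes they were -0.09262 to 0.07 (Cxcl12), -0.07307 to 0.004561 (Cx3cl1), -0.3231 to 0.05879 (Ccl28), -0.5761 to 0.1479 (Ccl9) and -0.4221 to 0.03476 (Ccl27b). Depth limits Ccl12, Ccl2, Ccl6 and Ccl9 in CL, where levels are near 3 reads.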
